A study of Mus musculus with 36 samples.

Results

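mt-Rnr1 and mt-Rnr2 are the 2 ribosomal RNA genes of the mouse mitochondrial genome (mtDNA). They were taken by name on chromosome MT, and both were listed in all 6 count tables of the series, as 2 of 37 mtDNA-encoded genes and of 55991 genes listed in at least 1 table. The tables hold bulk RNA-seq libraries, 6 per table and 36 in all. Cauda spermatozoa, the mature sperm collected from the tail of the epididymis, came from C57BL/6N males that were fed from 6 weeks of age for 2 weeks on a high-fat diet (HFD, 60 kcal% fat) or a low-fat diet (LFD, 10 kcal% fat), with 3 libraries per diet. Morulae, compacting embryos before the blastocyst stage, came from in vitro fertilization with sperm of males fed on HFD or LFD, were picked after 72 h of culture, and gave 3 libraries per paternal diet. Round spermatids, the haploid cells before sperm elongation, came from males on either diet. Liver, epididymal white adipose tissue (eWAT) and gastrocnemius muscle came from F1 male offspring of HFD-fed fathers that were themselves kept on chow, 3 labelled glucose tolerant and 3 intolerant in each tissue. The columns of these last 4 tables do not name a sample, so each table was used as 1 group of 6 libraries without diet or phenotype. In every table the males, or the fathers of the embryos or offspring, were C57BL/6N mice fed their diet from 6 weeks of age for 2 weeks. Libraries are lettered within a group from the lowest to the highest total count.

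Both genes are read from the same strand of mtDNA near the start of its heavy-strand transcript. mt-Rnr1 gives the 12S rRNA of the small subunit and mt-Rnr2 the 16S rRNA of the large subunit of the mitochondrial ribosome, which makes the mtDNA-encoded subunits of the respiratory chain and ATP synthase. The tRNA for valine lies between them and is cut out of the same precursor, so that 1 transcription event through the region yields 1 copy of each rRNA. Enzymes encoded in the nucleus then modify and fold both RNAs, and in sperm the mitochondria are packed into the sheath of the midpiece.

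On GRCm38 mt-Rnr1 (ENSMUSG00000064337) covers MT:70-1024 on the plus strand, 955 bases, and mt-Rnr2 (ENSMUSG00000064339) covers MT:1094-2675 on the plus strand, 1582 bases. Both are single-exon noncoding genes. They are alike in base content, with 37.8% A in mt-Rnr1 and 38.2% in mt-Rnr2, and with a GC content of 35.8% and 35.4%. The 3′ ends are shown because the QuantSeq kit used for liver, eWAT and gastrocnemius primes on A-rich RNA and reads near the priming site. They were copied from the GENCODE M21 transcripts on GRCm38, and the capitals mark the last 20 bases, after which a tail would be added.
mt-Rnr1, chrMT:905-1024, plus strand: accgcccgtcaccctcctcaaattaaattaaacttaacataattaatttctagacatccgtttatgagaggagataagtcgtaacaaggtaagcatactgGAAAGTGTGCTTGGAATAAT
mt-Rnr2, chrMT:2556-2675, plus strand: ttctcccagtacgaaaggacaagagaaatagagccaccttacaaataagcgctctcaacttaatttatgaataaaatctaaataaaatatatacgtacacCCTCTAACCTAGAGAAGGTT
Neither end closes on a run of A. A search of the transcript strand for AAAAAA, with longer runs counted once, found no run in mt-Rnr1 and 4 runs inside mt-Rnr2, and TTTTTT, its match on the other strand, was in neither gene. The 4 stretches of mt-Rnr2 follow, with the run in capitals.
mt-Rnr2 run 1, chrMT:1434-1479, plus strand: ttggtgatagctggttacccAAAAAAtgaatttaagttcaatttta
mt-Rnr2 run 2, chrMT:1468-1514, plus strand: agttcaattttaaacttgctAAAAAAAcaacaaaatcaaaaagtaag
mt-Rnr2 run 3, chrMT:1536-1581, plus strand: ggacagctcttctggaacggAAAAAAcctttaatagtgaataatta
mt-Rnr2 run 4, chrMT:2250-2295, plus strand: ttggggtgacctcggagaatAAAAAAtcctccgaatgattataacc
Among nuclear transcripts of at least the same length, 39.8% held AAAAAA in their last 955 bases and 53.1% in their last 1582 bases. Of the 13 mtDNA-encoded protein genes, 5 held such a run, 9 runs in all. A run is a description of the letters, and no value here shows where the reads of a library began.

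Total counts ranged from 369772 (gastrocnemius library a) to 31056066 (round spermatid library f), and the 95% Wilson interval of the share of counts on both genes reached at most 0.114 percentage points to either side, for counting error alone. Most marker lists went with the labels. The sperm list (protamines and other sperm genes, 8 genes) lay at 7709 to 52192 CPM (counts scaled to 1e6, here of nuclear counts) in the sperm table and at 0 in liver. In round spermatids it lay at 10549 to 13631 CPM, inside the sperm range. The liver, fat and muscle lists were highest in their own tissues. Of a morula list of 6 genes, Pou5f1 and Nanog, transcription factors of the early embryo, had counts in morulae and none in sperm. Summed, this list did not part these tables, at 309 to 387 CPM in morulae and 149 to 467 in sperm. In sperm 4 of its genes had counts. The round spermatid list (6 genes) was highest in round spermatids, at 1200 to 1314 CPM. The sperm table also held 6 of 6 genes of an epididymal epithelium list, at 7771 to 44218 CPM of nuclear counts, against at most 13.7 in every other table. The libraries of sperm, round spermatids and morulae were made with the Nextera kit and those of the 3 offspring tissues with the QuantSeq 3′ kit, so that tissue and kit cannot be told apart between the 2 sets of tables. Round spermatid RNA was also depleted of rRNA, which is not stated for sperm or morulae, so that in every value that sets round spermatids against another table the tissue and the depletion cannot be told apart either. Sperm reads were single-ended, and those of round spermatids and morulae paired-ended. Between sperm and either of these tables, tissue and read layout therefore cannot be told apart. In bulk samples a change in the number of cells and a change in RNA per cell likewise cannot be told apart, and neither can fewer nuclear transcripts and more mitochondrial ones.

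The 2 genes took a larger share of the counts in sperm than in any other table. On average they held 64.1% ± 13.8 of all counts in sperm, 18.6% ± 1.11 in morulae, 12.02% ± 3.00 in liver, 11.5% ± 2.24 in gastrocnemius, 7.78% ± 1.84 in eWAT and 1.80% ± 0.172 in round spermatids, the table with rRNA depletion (SD, n = 6 each). By counts, not divided by length, mt-Rnr2 was the highest gene in all 6 sperm and all 6 morula libraries, with mt-Rnr1 second in each. In round spermatids mt-Rnr2 ranked 1 or 2 and mt-Rnr1 ranked 3. In the offspring tissues mt-Rnr2 ranked from 1 to 3 and mt-Rnr1 from 3 to 9.

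**Figure D1:**
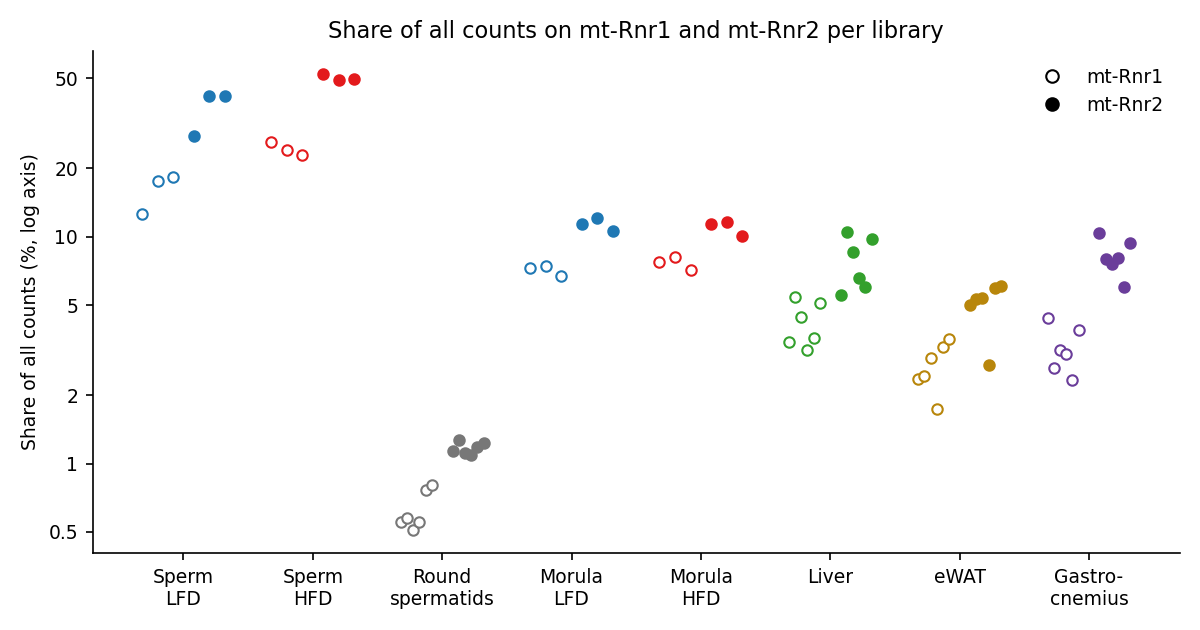
Share of all counts of a library on mt-Rnr1 (open points) and mt-Rnr2 (filled points), in percent on a log axis, for each of the 36 libraries by group. mt-Rnr2 lies above mt-Rnr1 in every library, sperm libraries lie highest (12.6% to 52.4%) and round spermatids lowest (0.507% to 1.27%).

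mt-Rnr1 alone held 12.6% to 26.3% of all counts in sperm and 6.72% to 8.14% in morulae. Its share was 3.18% to 5.43% in liver, 2.33% to 4.38% in gastrocnemius and 1.74% to 3.53% in eWAT. In round spermatids it was 0.507% to 0.807%. Thus sperm and morula libraries stood apart from all others for the 12S gene, and round spermatid libraries lay below all others.

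mt-Rnr2 alone held 28.0% to 52.4% of all counts in sperm and 10.1% to 12.1% in morulae. Its share was 5.52% to 10.5% in liver, 6.03% to 10.4% in gastrocnemius and 2.71% to 6.08% in eWAT. In round spermatids it was 1.09% to 1.27%. For the 16S gene liver and gastrocnemius reached into the morula range, whereas sperm and round spermatids again overlapped with no other table.

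The share on both genes was compared between all 15 pairs of tables with two-sided exact permutation tests (6 against 6 libraries, smallest p 0.00216), adjusted by Benjamini-Hochberg over the 15 pairs. Of the 6 pairs made with the same kit, 5 passed at an adjusted p under 0.05. Sperm exceeded morulae by 45.5 percentage points and round spermatids by 62.3, and morulae exceeded the rRNA-depleted round spermatid libraries by 16.8, each with an adjusted p of 0.00271 (exact permutation) and with no overlap between libraries. Liver exceeded eWAT by 4.24 points (adjusted p = 0.0139, exact permutation) and gastrocnemius exceeded eWAT by 3.71 (adjusted p = 0.00749, exact permutation), with overlapping libraries in both. Liver and gastrocnemius, neighbours in the order of the shares, differed by 0.532 points, which did not pass (adjusted p = 0.738, exact permutation). All 9 pairs made with different kits passed, without overlap.

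As a share of the counts on the 37 mtDNA-encoded genes, the order of the tables was another one. Both rRNA genes together made up 93.2% ± 0.421 of mtDNA-encoded counts in sperm, 83.8% ± 1.89 in round spermatids, 74.0% ± 1.30 in morulae, 49.1% ± 8.15 in liver, 46.8% ± 11.2 in eWAT and 30.96% ± 5.24 in gastrocnemius (SD, n = 6 each). Round spermatids, lowest of all tables by share of all counts, were thus next to sperm by this share, at 81.1% to 86.2% in single libraries. The 3 Nextera tables differed from each other without overlap: sperm exceeded round spermatids by 9.45 percentage points and morulae by 19.2, and round spermatids exceeded morulae by 9.75 (adjusted p = 0.00250 each, exact permutation). Among the QuantSeq tables liver exceeded gastrocnemius by 18.1 points (adjusted p = 0.00250, exact permutation), eWAT exceeded gastrocnemius by 15.8 (adjusted p = 0.0162, exact permutation), and the 2.32 points between liver and eWAT did not pass (adjusted p = 0.706, exact permutation).

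**Figure D2:**
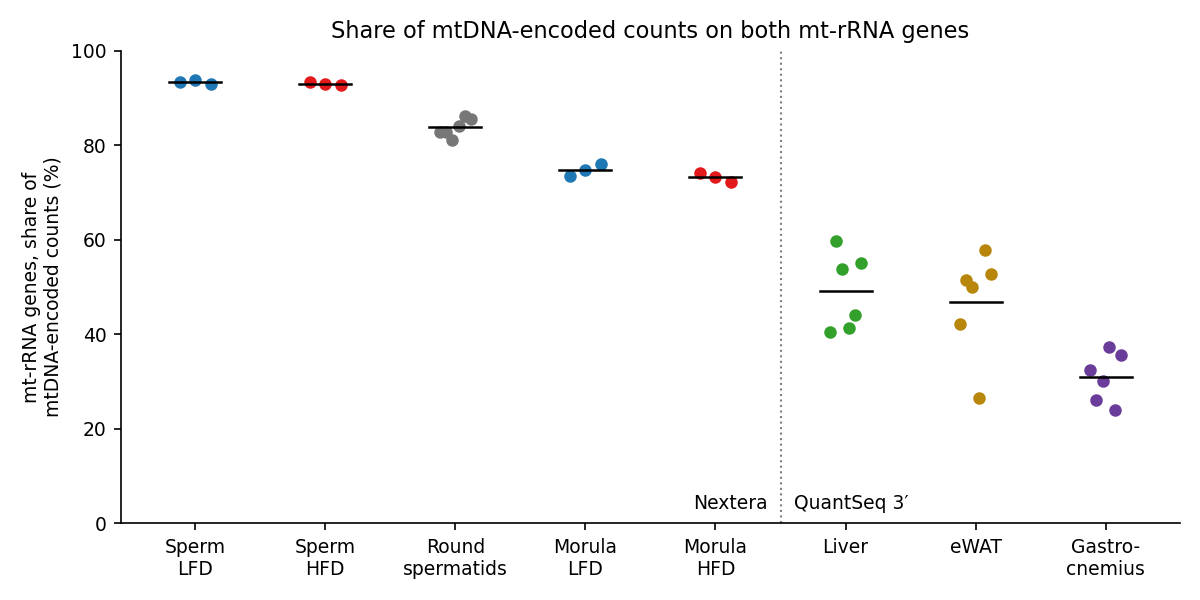
Share of mtDNA-encoded counts on mt-Rnr1 and mt-Rnr2 together, in percent, for each library (points) with the group mean (bar). The dotted line parts the Nextera from the QuantSeq tables, and every Nextera library (72.3% to 93.9%) lies above every QuantSeq library (24.04% to 59.7%).

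Set against the 13 mtDNA-encoded protein genes instead, each count on a protein gene was matched by 12.8 to 15.4 counts on the rRNA genes in sperm, 4.30 to 6.28 in round spermatids and 2.63 to 3.19 in morulae. In the QuantSeq tables the number was 0.681 to 1.49 in liver, 0.359 to 1.37 in eWAT and 0.317 to 0.598 in gastrocnemius. These are counts not divided by gene length. All 6 gastrocnemius libraries, and some of liver and eWAT, therefore held fewer counts on the rRNA genes than on the protein genes.

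Library d of eWAT held the lowest mt-rRNA level of its table. mt-Rnr2 took 2.71% of its counts against 4.99% to 6.08% in the other 5 eWAT libraries, and the gap to the nearest library was 0.674 of the whole range, above Dixon's 95% critical value for 6 samples. This was 1 of 20 such tests, and no other was flagged. Both rRNA genes made up 26.4% of the mtDNA-encoded counts of library d, with 42.3% to 57.8% in the others, while all mtDNA-encoded genes took 16.9% of its counts, inside the range of the table (15.1% to 18.2%). The summed level of the nuclear genes annotated as rRNA with Gm42418 and Gm26917, 2 noncoding genes that overlap 45S rRNA sequence, was 2883 CPM of all counts in this library and 25487 to 48359 in the other 5. The part of the nuclear rRNA level in this result was not tested. Without this library liver exceeded eWAT by 3.58 percentage points of all counts (adjusted p = 0.0278, exact permutation), and eWAT exceeded gastrocnemius by 19.9 points of mtDNA-encoded counts (adjusted p = 0.00464, exact permutation). The library was left out after its low values had been seen, so these p-values are no independent test.

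**Figure D3:**
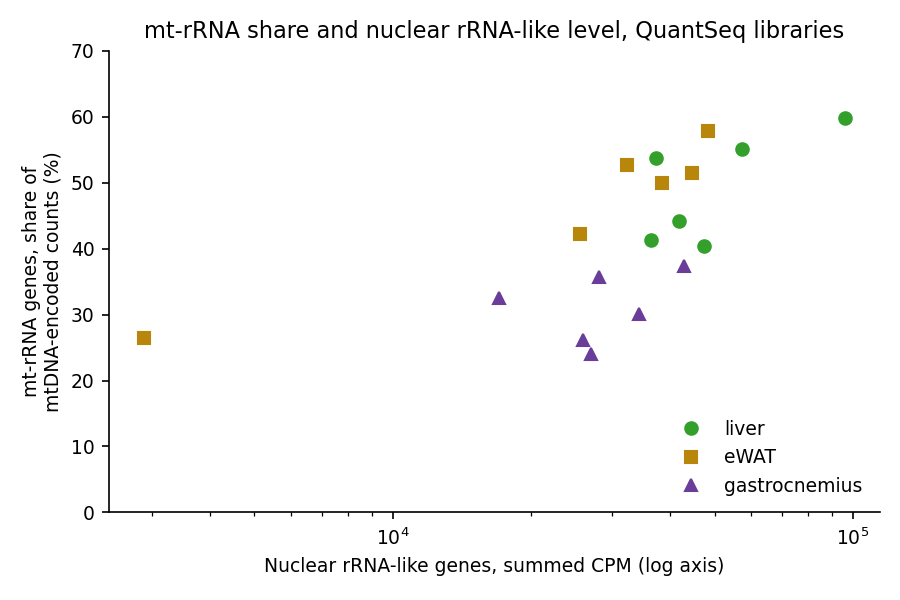
Share of mtDNA-encoded counts on both mt-rRNA genes (percent) against the summed CPM of nuclear rRNA-like genes (log axis) in the 18 QuantSeq libraries. eWAT library d stands alone on the CPM axis at 2883 CPM, and the other 17 libraries lie between 16989 and 95902 CPM. Its share of 26.4% is not the lowest, as gastrocnemius libraries b (26.1%) and e (24.04%) lie below it.

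mt-Rnr2 was counted more often than mt-Rnr1 in all 36 libraries, by a factor of 1.42 to 3.05. With the same number of counts per base the factor would be 1.66, the ratio of the annotated lengths. In sperm the ratio was 2.18 ± 0.152, in round spermatids 1.92 ± 0.309, in morulae 1.51 ± 0.0893, in liver 1.86 ± 0.178, in eWAT 1.87 ± 0.241 and in gastrocnemius 2.58 ± 0.255 (SD, n = 6 each). Per annotated base mt-Rnr2 therefore stood above mt-Rnr1 in every sperm library (1.204 to 1.44) and every gastrocnemius library (1.44 to 1.84), and below it in every morula library (0.858 to 0.987). The other 3 tables held libraries on both sides of 1. Because the QuantSeq kit reads near the priming site, counts in liver, eWAT and gastrocnemius need not follow gene length. Their values per base are therefore not a measure of the balance of the 2 RNAs.

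The log2 ratio differed in 4 of the 6 pairs made with the same kit (exact permutation, adjusted p under 0.05). Sperm exceeded morulae by 0.53 on the log2 scale (adjusted p = 0.00649, exact permutation) and round spermatids exceeded morulae by 0.33 (adjusted p = 0.0354, exact permutation). Gastrocnemius exceeded liver by 0.47 and eWAT by 0.47, without overlap between libraries (adjusted p = 0.00649 each, exact permutation). Sperm and round spermatids (difference 0.20, adjusted p = 0.130, exact permutation) and liver and eWAT (difference 0.01, adjusted p = 0.933, exact permutation) did not differ beyond their spread. With the LFD libraries alone for sperm and morulae, 3 of all 15 pairs passed in place of 11, and sperm against morulae (difference 0.53, adjusted p = 0.136, exact permutation) and round spermatids against morulae (difference 0.26, adjusted p = 0.298, exact permutation) were not among them, where 3 against 3 libraries allow no p under 0.1 for sperm and morulae. Of the 9 pairs made with different kits 7 passed, and those of round spermatids with liver and with eWAT did not.

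**Figure D4:**
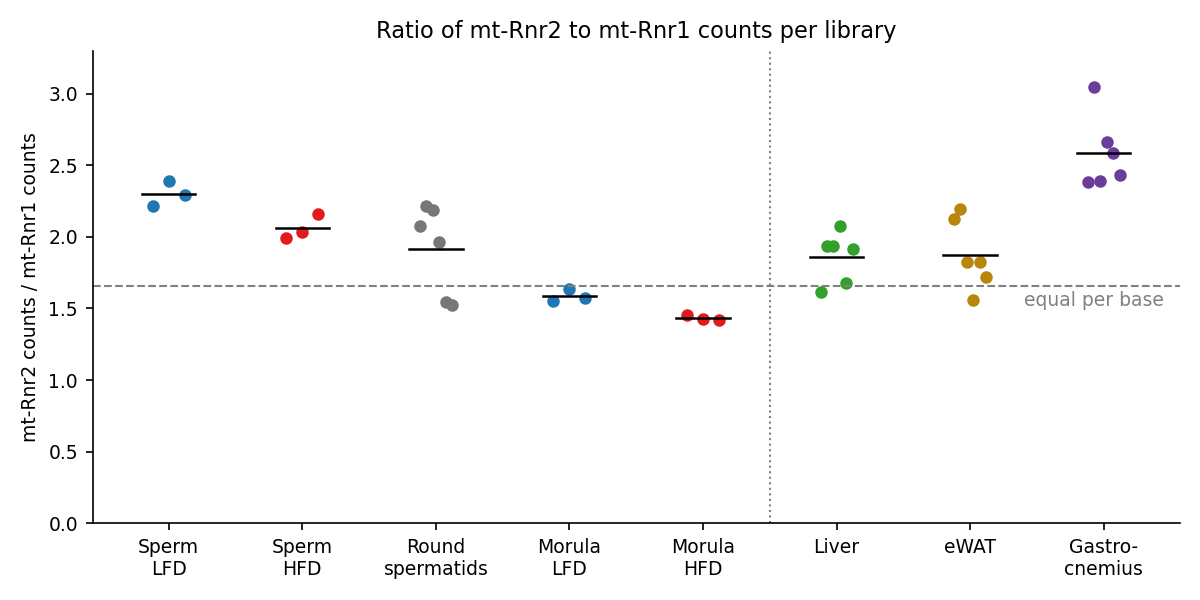
Counts on mt-Rnr2 divided by counts on mt-Rnr1 for each library (points) with the group mean (bar). The dashed line is the ratio of the annotated lengths, 1.66, at which both genes have equal counts per base, and morula libraries (1.42 to 1.64) lie below it while sperm (1.99 to 2.39) and gastrocnemius libraries (2.38 to 3.05) lie above. In the QuantSeq tables, read near the priming site, counts need not follow gene length.

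Round spermatid libraries fell on both sides of that line. In libraries a to d the ratio of mt-Rnr2 to mt-Rnr1 was 2.07, 2.21, 2.18 and 1.963, and in libraries e and f it was 1.55 and 1.52. Libraries e and f also carried 26148 and 60635 counts on CT010467.1, a nuclear rRNA gene of the 18S type, against 353 to 698 in the other 4, and they had the largest totals. The part of these differences in the ratio was not tested. Without libraries e and f the log2 ratio of round spermatids exceeded that of morulae by 0.48 (adjusted p = 0.0143, exact permutation) and that of liver by 0.19 (adjusted p = 0.0357, exact permutation), while sperm exceeded round spermatids by 0.05 in place of 0.20 (adjusted p = 0.490, exact permutation). Libraries e and f were left out after their low ratios had been seen, so these p-values are no independent test. In liver, libraries a and e had ratios of 1.61 and 1.68 and the other 4 had 1.91 to 2.08.

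Sperm of males fed on HFD and on LFD were compared by the share of counts first. On LFD the libraries a, b and c held 12.6%, 17.5% and 18.3% of all counts on mt-Rnr1, and on HFD 26.3%, 24.2% and 22.9%. For mt-Rnr2 the shares were 28.0%, 42.0% and 41.8% on LFD and 52.4%, 49.2% and 49.5% on HFD. All 3 HFD libraries lay above all 3 LFD libraries for both genes, and 0.555% of the 8643 tested genes showed this for their share of all counts, against 57.2% with the groups apart in the opposite direction.

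The share on both genes was 74.9% ± 3.38 on HFD and 53.4% ± 11.1 on LFD (SD, n = 3 each), a difference of 21.5 percentage points with p = 0.1 (two-sided exact permutation test, 20 arrangements), the smallest p that 3 against 3 libraries allow. LFD library a, whose column name lists 1 more number than those of the others, held the lowest share, and without it the difference was 15.1 points. The share of all mtDNA-encoded genes differed alongside, with 80.5% ± 3.32 on HFD and 57.2% ± 11.9 on LFD. Markers of other RNA moved between the same libraries. The sperm list lay at 25807 to 52192 CPM of nuclear counts on HFD and 7709 to 27676 on LFD, and the epididymal epithelium list at 7771 to 13149 on HFD and 8234 to 44218 on LFD. The round spermatid list lay at 98.9 to 299.2 on HFD and 31.1 to 117.2 on LFD, a list of 5 erythroid genes at 593.6 to 1591 on HFD and 57.4 to 556.8 on LFD, and a list of 6 leukocyte genes at 230.7 to 479.5 on HFD and 309.3 to 343.4 on LFD. The morula list lay at 149.0 to 309.1 on HFD and 319.6 to 467.1 on LFD. A list of 6 testis somatic genes lay at 14.3 to 844.1 on HFD and 45.9 to 120.9 on LFD. The part of these lists in the result was not tested.

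edgeR's quasi-likelihood test, scaled by TMM and fitted over all 8643 genes that passed the filter on low counts, gave mt-Rnr1 a log2 fold change of 2.29 (HFD over LFD, SE 1.10, adjusted p = 0.401) and mt-Rnr2 one of 2.11 (SE 1.22, adjusted p = 0.504). Neither passed, and nor did any of the 8643 genes, 0.0%, while 1124 had an unadjusted p under 0.05. The libraries did not overlap between the diets on this scale either, which 8.21% of tested genes showed in this direction. TMM factors ranged from 0.44 to 0.71 on HFD and from 1.52 to 2.62 on LFD, and without them, on library totals, the log2 fold changes were 0.58 and 0.42 while the median over all genes went from -0.07 to -1.84. Relative to that median the values were 2.36 and 2.18 with TMM and 2.42 and 2.25 with library totals. DESeq2 placed both genes past the threshold, with log2 fold changes of 2.42 (adjusted p = 0.000582) for mt-Rnr1 and 2.23 (adjusted p = 0.00206) for mt-Rnr2. With limma-voom the values were 2.36 (adjusted p = 0.118) and 2.20 (adjusted p = 0.135), and neither gene passed.

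Within the mtDNA-encoded counts of sperm both rRNA genes together showed 93.0% ± 0.351 on HFD and 93.4% ± 0.457 on LFD, with overlapping libraries (p = 0.3, exact permutation). Between the 2 genes the balance differed in the mean. mt-Rnr1 held 30.4% ± 0.946 of mtDNA-encoded counts on HFD and 28.3% ± 0.703 on LFD, and mt-Rnr2 held 62.6% ± 0.673 on HFD and 65.1% ± 1.00 on LFD. In both cases there was no overlap (p = 0.1 each, exact permutation). How many other genes lay apart on this share was not counted. The ratio of mt-Rnr2 to mt-Rnr1 was 1.99, 2.03 and 2.16 in the HFD libraries and 2.21, 2.39 and 2.29 in the LFD libraries. The log2 ratio was lower on HFD by 0.16 in the mean, with p = 0.1 (exact permutation), the smallest possible value. Among the 8 mtDNA-encoded protein genes that were tested, 1, mt-Nd3, was likewise lower relative to mt-Rnr1 on HFD without overlap, and of the 8642 tested genes other than mt-Rnr1, nuclear genes included, 69.5% were.

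**Figure D5:**
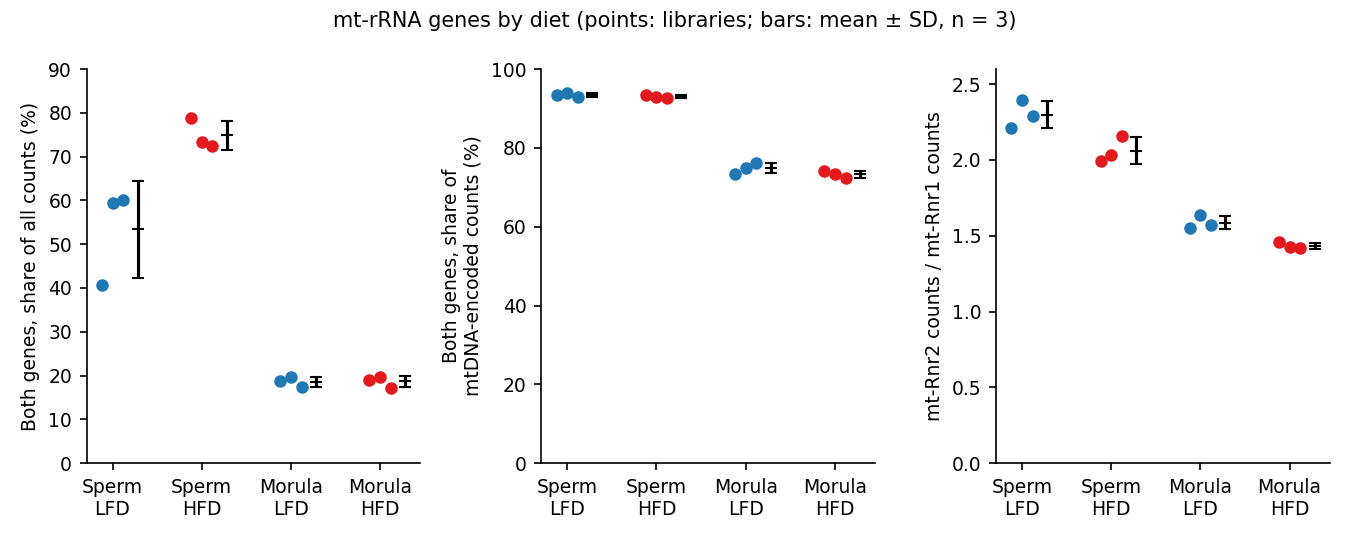
Share of all counts (left) and of mtDNA-encoded counts (middle) on both mt-rRNA genes, and ratio of mt-Rnr2 to mt-Rnr1 counts (right), by diet of the male in sperm and of the father in morulae. Points are libraries and bars are mean ± SD (n = 3), and the ratio is lower on HFD without overlap in both tables while the share of all counts is apart in sperm alone.

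In morulae the question was whether the diet of the father was followed by a difference in the embryo. mt-Rnr1 held 7.31%, 7.42% and 6.72% of all counts in the LFD libraries and 7.78%, 8.14% and 7.10% in the HFD libraries. mt-Rnr2 held 11.4%, 12.1% and 10.6% on LFD and 11.3%, 11.6% and 10.1% on HFD. The groups overlapped for both genes. The share on both genes was 18.7% ± 1.32 on HFD and 18.5% ± 1.14 on LFD (p = 0.8, exact permutation). edgeR gave log2 fold changes of 0.08 for mt-Rnr1 (SE 0.07, adjusted p = 0.888) and -0.06 for mt-Rnr2 (SE 0.07, adjusted p = 0.924), and none of 13447 tested genes passed, 0.0%, with 858 at an unadjusted p under 0.05. For 3 morula samples the labels carry a description that names the other diet than the title and treatment, and the latter were followed here.

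The ratio of the 2 rRNA genes nonetheless lay apart in morulae. It was 1.46, 1.42 and 1.42 in the HFD libraries and 1.55, 1.64 and 1.57 in the LFD libraries, so that every HFD library was below every LFD library. The log2 ratio was lower on HFD by 0.15, with p = 0.1 (exact permutation), again the smallest value possible. mt-Rnr1 held 30.1% ± 0.209 of mtDNA-encoded counts on HFD and 28.9% ± 0.587 on LFD, and mt-Rnr2 held 43.1% ± 0.744 on HFD and 45.9% ± 1.02 on LFD. Neither gene overlapped between the diets (p = 0.1 each, exact permutation), and how many other genes lay apart on this share was not counted. Of the 13 mtDNA-encoded protein genes 4 (mt-Atp6, mt-Co2, mt-Co3 and mt-Nd4l) were also lower relative to mt-Rnr1 on HFD without overlap, and none was higher, while of the 13446 tested genes other than mt-Rnr1 8.02% were lower and 3.29% higher. The nuclear rRNA genes were lower too, with 23260 to 29759 CPM on HFD and 30039 to 34014 on LFD, and their part in the ratio was not tested.

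The diet difference in the log2 ratio was -0.16 in sperm and -0.15 in morulae, and the difference between these did not pass (p = 0.92, exact permutation of the diets within both tables, 400 arrangements). For the share of all counts on both genes the diet difference was 21.5 percentage points in sperm and 0.169 in morulae, and their difference had p = 0.065 (exact permutation). For the share of mtDNA-encoded counts it was -0.383 in sperm and -1.55 in morulae (p = 0.35, exact permutation).

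Nuclear genes for maturation of mt-rRNA (25 genes for methylation, pseudouridylation, folding and ribosome assembly) had a count in every gene in sperm, round spermatids and morulae and in 24 of 25 in the QuantSeq tables, where Mpv17l2 was at 0. In sperm 6 of the 25 passed the filter on low counts. None passed the test of diet, 1 (Nsun4) had an unadjusted p under 0.05, and the median log2 fold change was 0.21 beside -0.07 over all tested genes. The highest values were 1.76 (SE 1.31) for Mettl17, needed for assembly of the small subunit, and 1.61 (SE 0.61, adjusted p = 0.285, edgeR) for Nsun4, a methyltransferase of the 12S rRNA. The lowest were -1.57 (SE 0.88) for the RNA helicase Dhx30 and -1.09 (SE 0.93) for the large-subunit factor Malsu1. In morulae all 25 were tested and none passed, with a median of 0.02 beside 0.01 over all genes. The highest values there were 0.62 (SE 0.37) for the assembly factor Rcc1l and 0.54 (SE 0.28) for Rpusd4, a pseudouridine synthase acting on the 16S rRNA, and the lowest were -0.71 (SE 0.55) for Mpv17l2 and -0.47 (SE 0.31) for Mrm1, a ribose methyltransferase of the 16S rRNA.

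Over the 36 libraries the gene whose level was most like each rRNA gene was the other one, with a Pearson r of 0.984 of log2 CPM among 23418 genes that were listed in all tables and had at least 10 counts in at least 6 libraries. The genes that came next included Gm11408 (r = 0.913), mt-Tf (0.907) and Bglap3 (0.894) for mt-Rnr1, and Gm11408 (0.943), Bglap3 (0.917) and Gm16136 (0.904) for mt-Rnr2. mt-Tf, the tRNA gene for phenylalanine, lies directly before mt-Rnr1 on mtDNA, and Bglap3 and the Gm genes are nuclear. With the mean of each table taken out, r was 0.869 between the 2 rRNA genes, 0.05 and 0.21 for Gm11408 and 0.08 for mt-Tf, and it lay between -0.23 and -0.17 for Bglap3 and Gm16136. These coefficients are descriptions across libraries of 6 tables that share kit and depth within a table, and depth enters through the library totals.

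Annotated nuclear copies were looked for because reads of mtDNA origin could be assigned to them or theirs to the rRNA genes. BLAST against all GENCODE M21 transcripts found none for mt-Rnr1 and 2 for mt-Rnr2 at an e-value up to 1e-10. Gm20594 matched 435 bases of mt-Rnr2 at 88.5% identity, and a transcript of Cep295 matched 662 bases at 77.9%. Gm20594 had 84 to 175 counts per library in sperm, 3 to 12 in round spermatids, 41 to 135 in morulae and 14 to 116 in the offspring tissues, up to 47.1 CPM, which is small beside the lowest share of mt-Rnr2 of 1.09%. Copies outside annotated transcripts were not analysed here.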

How the data were processed

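Bulk RNA-seq count tables of cauda spermatozoa, round spermatids, morulae, liver, eWAT and gastrocnemius were used. The authors removed adaptors with BBDuk, aligned with STAR against GRCm38, assigned reads to genes with featureCounts and deposited raw counts, used here without change. Reads were 75 bp, single-ended in sperm and paired-ended in round spermatids and morulae, and 50 bp single-ended in the QuantSeq tables. Versions are not given in the sources used here. The annotated length per gene, which the authors deposited beside the counts, was used for values per base. Gene symbols came from GENCODE M21 by Ensembl identifier.

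In sperm (h or l) and morula (MH or ML), letters in a column's name gave the diet of the library. The names of the other 24 columns give a tissue but no sample, so each of these tables was 1 group. For round spermatids the study's methods give 3 mice for each diet. For libraries not stated to be separate animals or cultures, p-values measure the spread between these libraries, which may be technical. The 72 pairs of libraries within a group all differed by more than sampling noise (chi-square per degree of freedom at least 3.50 over genes with at least 20 counts).

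Shares and ratios were computed per library from the counts and compared by two-sided exact permutation tests of means in Python 3.11.15 with scipy 1.17.1. A share in a single library carries a 95% Wilson interval, and a count of 0 allows up to 3 counts, both for counting error only. Diets were also compared with edgeR 4.0.16 in R 4.3.3 (filterByExpr with a minimum count of 10, TMM, quasi-likelihood test, Benjamini-Hochberg adjustment, threshold 0.05), in sperm and in morula apart. The study's methods name NOISeq, which was not run. Alternatives were DESeq2 1.42.0, its size factors, library totals, TMM on nuclear genes, no filter, limma-voom (limma 3.58.1), each library left out, a block by column number in sperm, medians, other denominators, LFD libraries alone and genes common to all tables. Leaving out round spermatid libraries e and f, liver a and e, eWAT d or gastrocnemius a, and leaving nuclear rRNA out of the denominator, were added after seeing the data. On simulated sperm counts, where 200 of 8643 genes were given a log2 change of 2 at the spread of the real libraries, edgeR recovered 3% of them and DESeq2 19.5%, with 7 false calls of DESeq2. On simulated morula counts (13447 genes) the same step recovered 74% and 75.5%, with 8 and 22 false calls. The changed genes were drawn at random, as many raised as lowered, so these rates are not those of mt-Rnr1 or mt-Rnr2.

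The 2 rRNA genes, the maturation list and the marker lists were chosen with earlier results of these data known. Named were the 2 genes, the 5 genes and the 3 nuclear genes most like each by Pearson r of log2 CPM (prior count 2, at least 10 counts in at least 6 libraries), and of the maturation list those past the threshold or else the 2 highest and 2 lowest. One of the genes most like the rRNA genes is not reported here. Genes named for a ratio to mt-Rnr1, and CT010467.1, Gm42418, Gm26917 and Gm20594, were named after their values were seen or from their annotation as rRNA. Gm42418 and Gm26917 are not in the morula table. The strand setting of the counting is not given in the sources used here, so nuclear rRNA levels were compared within a table alone. Sequences were matched with BLAST 2.17.0 and figures drawn with matplotlib 3.10.9.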

Additional observations from a re-analysis of the deposited data

Results flagged for a closer look

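The share of counts on mt-Rnr2 in eWAT library d (2.71%) stood apart from the other 5 libraries of its table by Dixon's test. It was 1 of 20 such tests (4 tables by 5 measures that share their counts), and chance alone flags about 5% of groups.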

How the results depend on the processing

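Between tables, the number of pairs that passed stayed within 1.5 times for all 3 measures under every alternative, except that with the LFD libraries alone 3 pairs passed for the log2 ratio in place of 11. With 3 libraries each, sperm and morulae cannot reach p under 0.1 in that setting, and their pair no longer passed for either share (adjusted p = 0.107 each, exact permutation). Single pairs near 0 changed sign: liver minus eWAT in the share of mtDNA-encoded counts was -1.75 percentage points with medians and -1.75 without eWAT library d, and in the log2 ratio 0.077 with medians and 0.079 without liver libraries a and e, while round spermatids minus liver was -0.052 without liver libraries a and e and round spermatids minus eWAT -0.025 without eWAT library d. The log2 ratio of sperm and eWAT no longer passed without eWAT library d (adjusted p = 0.0708, exact permutation), and that of round spermatids and liver passed without round spermatid libraries e and f (adjusted p = 0.0357, exact permutation). These libraries were chosen after their values had been seen, so p-values without them are no independent test.

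In sperm, genes past the threshold numbered 0 with edgeR, 0 with limma-voom, 3357 with library totals (2 of them in the maturation list), 41 with no filter and 286 with DESeq2, which gave mt-Rnr1 2.42 and mt-Rnr2 2.23. In morulae they numbered 63 with no filter and 9 with DESeq2. The cause of these differences between tools was not tested. With 1 library left out at a time, sperm log2 fold changes were 2.00 to 2.54 for mt-Rnr1 and 1.80 to 2.40 for mt-Rnr2, with adjusted p from 0.407 to 0.909 (edgeR). In morulae the range was -0.0019 to 0.15 for mt-Rnr1 and -0.14 to 0.0104 for mt-Rnr2, with 0 to 2 genes past the threshold, and -0.436 to 0.907 percentage points for the share on both genes, which was below 0 without HFD library a (-0.042), HFD library b (-0.358) or LFD library c (-0.436). The log2 ratio stayed lower on HFD, by -0.19 to -0.13 in sperm and by -0.16 to -0.12 in morulae, though no p under 0.2 is possible there (exact permutation).

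Sperm columns share the numbers 1 and 4 between the diets, and their libraries are not stated to be paired. Deviations from the group means had r = 0.104 for number 1 and -0.147 for number 4 over 8969 genes, so the numbers were taken as names. With a replicate block by column number the log2 fold changes were 2.81 (SE 10.4) and 2.62 (SE 13.9), and 2 genes passed. Morula columns share no number between the diets.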

Other observations

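Within each of the 3 QuantSeq tables the share of mtDNA-encoded counts on both mt-rRNA genes was set against the summed nuclear rRNA-like level (log2 CPM), a relation chosen after the data had been seen. In eWAT Pearson's r was 0.954 (p = 0.0194, adjusted 0.0583 over 3 relations, exact permutation, n = 6) and Spearman's rho 0.8286 (p = 0.0583, adjusted 0.175, exact permutation). Without libraries d and a, the farthest from the median of the nuclear level, r was 0.501 over the 4 libraries left, which span a narrower range of that level and are too few to test. In liver r was 0.690 (p = 0.1, adjusted 0.15, exact permutation) and rho 0.6 (p = 0.242, adjusted 0.356, exact permutation), and r was -0.472 without the 2 farthest libraries. In gastrocnemius r was 0.303 (p = 0.592, adjusted 0.592, exact permutation) and rho 0.486 (p = 0.356, adjusted 0.356, exact permutation), and r was 0.347 without the 2 farthest libraries. None passed the adjustment.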
